A study of Mus musculus with 9 samples.

Results

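The genes described here are 10 C-type lectin receptors of myeloid cells, Cd209a, Clec10a, Mgl2, Clec9a, Clec4a1, Clec4a3, Clec4a2, Clec4n, Clec7a and Clec12a. They were taken by exact symbol from a table of 23420 gene symbols, and all 10 were found and passed the filter on low values (RPKM, reads scaled by gene length and library total, of 1 or more in 2 libraries). The 10 were chosen by their symbols and selected on earlier results of these same libraries, the RPKM levels and the differences between the 3 genotypes, so their values, and the counts of members past a threshold, are a description of the choice and support nothing. The 9 RNA libraries hold Mac1+ cells sorted from the bone marrow of C57BL/6 mice, 100 cells to a library, prepared with Smart-seq2, a protocol that reads whole transcripts without marking strand. Mac1, an integrin whose alpha chain is encoded by Itgam, is a surface marker of granulocytes and monocytes that some dendritic cells also carry.

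All libraries came from mice with homozygous floxed Ezh2 (fl/fl) and homozygous floxed Runx1 (fl/fl). The DKOITD group (n = 4) also carried the Rag1Cre transgene and 1 Flt3 internal tandem duplication allele (ITD/+). Mice of the ITD group (n = 2) had Flt3 ITD/+ but no Cre, and those of the WT group (n = 3) had only the floxed alleles. Ezh2 encodes the histone methyltransferase of PRC2, Runx1 regulates transcription in haematopoiesis, and Flt3 is the receptor for a growth factor of progenitors and dendritic cells. Rag1 is expressed in early lymphoid cells, and how many of the Mac1+ cells had recombined is unknown here. The labels used give no age, sex or disease state, and do not say whether libraries are from separate animals, so the spread behind each p-value may be technical.

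C-type lectin receptors bind sugars, or in some cases other ligands, through a shared fold, and phagocytes and dendritic cells use them to take up antigen and to sense microbes and damaged cells. Some carry or recruit activating motifs that signal through the kinase Syk and the adaptor Card9, among them Clec7a (Dectin-1, which binds fungal beta-glucans) and Clec4n (Dectin-2, which binds mannans and pairs with Fcer1g). Others are inhibitory and recruit phosphatases such as Ptpn6, among them Clec4a2 (DCIR1) and Clec12a. Cd209a is a mouse relative of human DC-SIGN. Clec10a and Mgl2 are the paired galactose-type lectins of dendritic cells and macrophages, and Clec9a marks the dendritic cells that cross-present antigen from dead cells.

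Of the 10 genes, 7 lie on chromosome 6 in mm10 (GENCODE vM21). Clec4a1 (122921848 to 122934619), Clec4a3 (122952515 to 122969875), Clec4a2 (123106428 to 123143999) and Clec4n (123229843 to 123247021) form a first stretch, and Clec12a (129342691 to 129365303), Clec9a (129408862 to 129424763) and Clec7a (129461591 to 129472779) a second. Mgl2 (70130329 to 70137550) and Clec10a (70156197 to 70170834) lie 18.6 kb apart on chromosome 11, and Cd209a (3743397 to 3748984) is on chromosome 8. Mgl2 and Clec10a, and the Clec4a genes, are close relatives, so how the authors' counting divided reads between them is uncertain. The annotated span of Clec9a overlaps that of Clec1b by 474 bases.

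RefSeq promoter windows (GRCm38.p6, 250 bases before to 50 after a start) were found for 8 of the 10 genes, not for Clec10a and Clec4n. The 4 printed here belong to Cd209a, the member with the largest difference between groups, and to Clec4a1, Clec4a3 and Clec4a2, neighbours whose levels differed in opposite directions. Capitals mark GAGGAA (a core bound by the myeloid factor PU.1) and TGANTCA (AP-1) on either strand, and the Cd209a window holds neither. The windows are chr8:3748935-3749234 (minus strand), chr6:122921598-122921897, chr6:122952394-122952693 (the second of 2 listed starts) and chr6:123122440-123122739 (plus strand). The Clec4a2 window lies inside the GENCODE span of the gene given above, not at its start, and so does that of Clec12a.
Cd209a: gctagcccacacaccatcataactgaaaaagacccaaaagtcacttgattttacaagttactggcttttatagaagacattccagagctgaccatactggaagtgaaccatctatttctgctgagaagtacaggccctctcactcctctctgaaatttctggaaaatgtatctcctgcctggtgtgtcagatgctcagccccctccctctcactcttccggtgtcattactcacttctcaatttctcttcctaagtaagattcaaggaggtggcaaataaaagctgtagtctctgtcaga
Clec4a1: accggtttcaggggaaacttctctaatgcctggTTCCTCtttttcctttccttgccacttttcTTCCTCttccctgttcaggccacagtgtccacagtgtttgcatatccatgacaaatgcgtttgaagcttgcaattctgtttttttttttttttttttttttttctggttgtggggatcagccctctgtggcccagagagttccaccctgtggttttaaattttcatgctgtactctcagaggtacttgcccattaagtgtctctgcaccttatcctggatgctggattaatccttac
Clec4a3: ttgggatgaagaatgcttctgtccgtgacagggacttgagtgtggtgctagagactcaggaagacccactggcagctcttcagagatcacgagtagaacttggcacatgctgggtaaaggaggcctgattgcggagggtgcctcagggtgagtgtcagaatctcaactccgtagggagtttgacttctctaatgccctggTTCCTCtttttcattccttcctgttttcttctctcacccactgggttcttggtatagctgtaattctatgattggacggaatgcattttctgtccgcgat
Clec4a2: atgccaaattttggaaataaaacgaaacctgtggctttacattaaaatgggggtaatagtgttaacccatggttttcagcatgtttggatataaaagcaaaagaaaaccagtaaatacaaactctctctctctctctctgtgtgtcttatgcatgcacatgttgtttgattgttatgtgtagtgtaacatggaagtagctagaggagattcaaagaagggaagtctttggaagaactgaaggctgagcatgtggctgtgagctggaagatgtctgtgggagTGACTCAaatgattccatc
GAGGAA was present in the windows of 5 of the 8 genes, Mgl2, Clec4a1, Clec4a3, Clec7a and Clec12a, and in 28.3% of all 32851 windows. Clec4a1 held it at -217 and -187 from the start and Clec4a3 at -50. The windows of Clec4a1 and Clec4a3 shared a run of 17 bases around it, cctggTTCCTCtttttc, found in no other window of the table. TGANTCA was present in Clec4a2 and Clec12a, and in 7.81% of all windows. A C/EBP pattern (TTGCNNAA; 10.8% of all windows) was found in Clec12a, while an interferon regulatory factor pattern of GAAA repeated after a gap of any 2 bases (3.44%) was in none of the 8. The letters of a TATA box (TATAAA; 13.6%) were found in Cd209a at -184 from the start, Clec9a at -226, Clec4a2 at -161 and Clec7a at 42 after it. Both strands were searched, no matches in these windows overlapped each other, and a match is a description of letters only.

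Recovered whole reads ranged from 2825728 in DKOITD 2 to 23124435 in WT 1. The deposited columns imply denominators that exceed the reads by a factor of 1.13 to 1.44 in DKOITD and are below them in ITD (0.853 and 0.919) and WT (0.703 to 0.810), so levels set across groups depend on that scaling. What this factor corrects for was not found in the labels. The alternatives per recovered read, by limma voom and to the same total, given below, take the factor out of the values. With it they take out any correction between libraries that the factor holds, so they are not a more neutral scale. DKOITD libraries 1 to 3 carry label numbers of 228 to 274 and the 6 others numbers of 385 to 393, and the labels do not say what the numbers mean. DKOITD 4 (388) is therefore the only DKOITD library in the number range of the ITD and WT libraries. Of the floxed genes, Ezh2 ranged over 1.54 to 18.1 RPKM across DKOITD, 12.9 to 18.99 in ITD and 2.05 to 12.4 in WT, and Runx1 over 10.4 to 17.6 RPKM across DKOITD, 4.42 in both ITD libraries and 3.53 to 13.03 in WT. Both overlapped between DKOITD and WT, and a value for the whole gene does not show whether the floxed exons were lost. Itgam averaged 27.0 ± 12.2 RPKM in DKOITD (SD, n = 4), 87.7 ± 13.5 in ITD (SD, n = 2) and 111 ± 27.9 in WT (SD, n = 3).

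The dendritic lectins Cd209a and Clec10a had the largest differences between DKOITD and WT among the 10. Cd209a measured 2628, 356, 1965 and 1977 RPKM in DKOITD libraries 1 to 4, 189 and 569 RPKM in ITD libraries 1 and 2, and 1.40, 0 and 0 RPKM in WT libraries 1 to 3. All ITD and DKOITD libraries lay above all WT libraries, while DKOITD 2 fell within the ITD range. The reads behind these values were 1929 to 47035 in DKOITD, 1313 and 9910 in ITD, and 39, 0 and 0 in WT. With 1 read worth 0.0360 to 0.0596 RPKM in WT, Cd209a was at the edge of detection there.

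Clec10a stood at 186, 109, 276 and 186 RPKM in the DKOITD libraries, 15.9 and 27.6 RPKM in ITD 1 and 2, and 2.35, 0.236 and 0.0575 RPKM in WT. The 3 groups did not overlap, with ITD between the others. The WT values rest on 66, 4 and 1 reads. Mean Clec10a was 8.71 times as high in DKOITD as in ITD and 24.7 times as high in ITD as in WT, and mean Cd209a 4.57 times as high in DKOITD as in ITD. Cd209a exceeded Clec10a by 3.27 to 14.1 times in DKOITD and by 11.9 and 20.7 times in ITD, whereas in WT 1 it stood at 0.598 times Clec10a.

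Mgl2, the neighbour and close relative of Clec10a, was less orderly. It stood at 22.8, 14.3, 31.2 and 133 RPKM in the DKOITD libraries, 6.19 and 53.8 RPKM in ITD 1 and 2, and 0.930, 0 and 15.03 RPKM in WT. DKOITD 4, ITD 2 and WT 3 were the highest library of their groups, and each pair of groups overlapped. In WT 3 Mgl2 had 270 reads where Clec10a had 1 and Cd209a had 0.

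Clec9a was low everywhere, at 8.20, 2.91, 6.34 and 9.68 RPKM across DKOITD, 0.712 and 1.73 RPKM in ITD 1 and 2, and 0.714, 0 and 0 RPKM in WT. DKOITD libraries lay above all others, and ITD 1 was level with WT 1. Behind the low values were 35 reads in DKOITD 2, 11 in ITD 1 and 44 in WT 1.

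**Figure D1:**
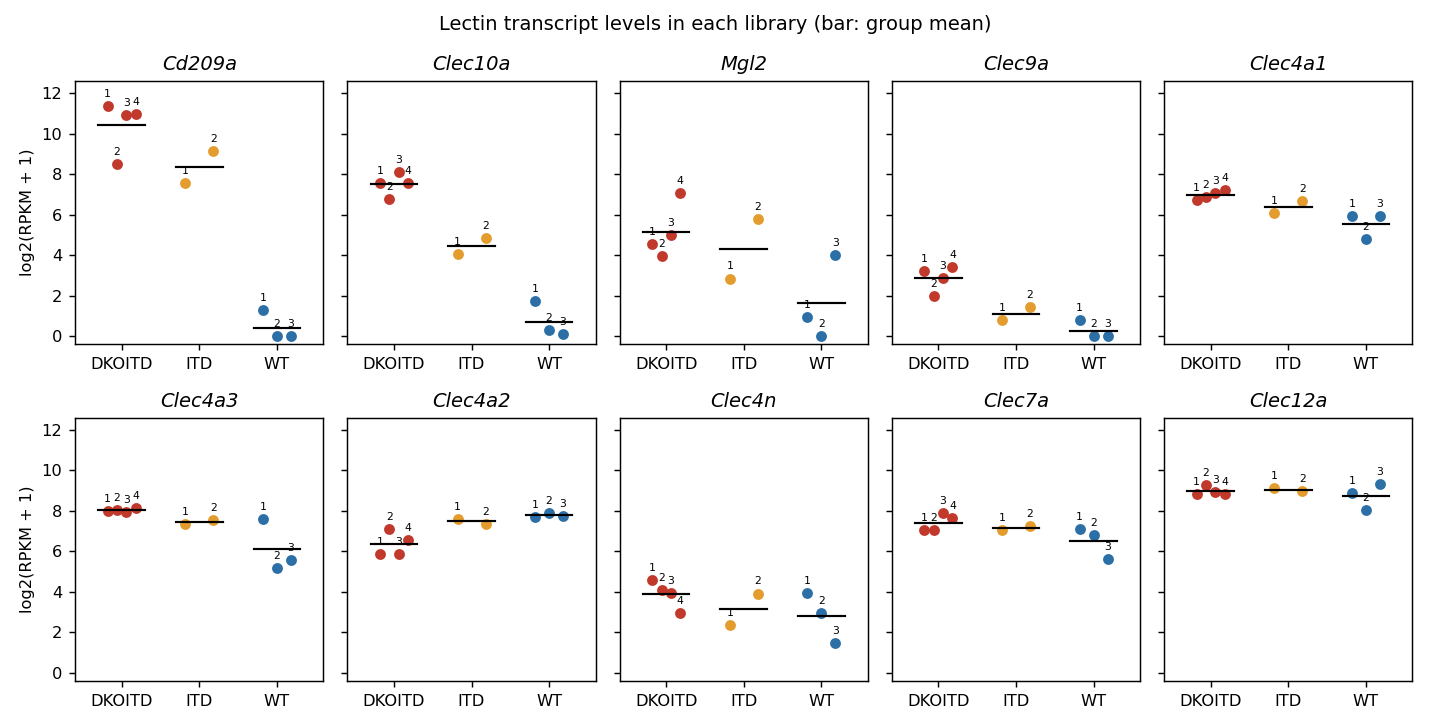
Levels of the 10 lectins, as log2(RPKM + 1), in each library; points are libraries numbered within their group and bars are group means of DKOITD (n = 4), ITD (n = 2) and WT (n = 3). Cd209a and Clec10a are lowest in WT, Clec4a2 is lowest in DKOITD, and Clec12a is at a similar height in all groups.

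The Clec4a genes, which lie together on chromosome 6, differed in opposite directions. Clec4a1 stood at 106, 114, 132 and 146 RPKM in the DKOITD libraries, 66.2 and 101 RPKM in ITD 1 and 2, and 61.0, 26.5 and 59.4 RPKM in WT. Clec4a3 stood at 251, 263, 243 and 284 RPKM in the DKOITD libraries, 160 and 188 RPKM in ITD 1 and 2, and 196, 35.2 and 46.3 RPKM in WT. Both were higher in all 4 DKOITD libraries than in any ITD or WT library, and Clec4a3 was the member with the smallest spread in DKOITD (coefficient of variation 6.83%).

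Clec4a2, the inhibitory member, had the opposite order. It stood at 58.3, 137, 58.1 and 93.0 RPKM in the DKOITD libraries, 191 and 163 RPKM in ITD 1 and 2, and 203, 239 and 216 RPKM in WT. Every DKOITD library was below every ITD library, and every ITD library below every WT library. The ratio of Clec4a3 to Clec4a2, which does not depend on how a library was scaled, was 4.31, 1.93, 4.18 and 3.05 in DKOITD, 0.837 and 1.15 in ITD, and 0.963, 0.148 and 0.214 in WT. In WT 1 that ratio lay within the ITD range. Clec4a1 over Clec4a2 did not overlap between groups, at 0.838 to 2.27 in DKOITD, 0.346 and 0.615 in ITD, and 0.111 to 0.300 in WT.

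The fungal sensors Clec4n and Clec7a and the inhibitory receptor Clec12a overlapped between all groups. Clec4n stood at 23.2, 15.8, 14.3 and 6.65 RPKM in the DKOITD libraries, 4.11 and 14.1 RPKM in ITD 1 and 2, and 14.2, 6.74 and 1.80 RPKM in WT. Clec7a stood at 131, 130, 240 and 197 RPKM in the DKOITD libraries, 132 and 153 RPKM in ITD 1 and 2, and 136, 113 and 48.0 RPKM in WT. WT 3 was the lowest of all 9 libraries for both genes, and the group ranges crossed.

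Clec12a was abundant in each library, at 459, 616, 484 and 462 RPKM across DKOITD, 567 and 496 RPKM in ITD 1 and 2, and 464, 260 and 635 RPKM in WT. WT held both its lowest and its highest library.

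By mean level, the order in DKOITD was Cd209a (1731 RPKM), Clec12a (505), Clec4a3 (260), Clec10a (189), Clec7a (174), Clec4a1 (124), Clec4a2 (86.5), Mgl2 (50.4), Clec4n (14.99) and Clec9a (6.78). Only Clec12a and Clec4a3 were neighbours in that order whose ranges did not overlap. In ITD the order of mean RPKM began with Clec12a (531), Cd209a (379), Clec4a2 (177) and Clec4a3 (174). The ranges of Clec12a, Cd209a and Clec4a2 each overlapped with the next, and that of Clec4a3 did not overlap with that of Clec7a, which followed. In WT it was Clec12a (453), Clec4a2 (219), Clec7a (98.7), Clec4a3 (92.4), Clec4a1 (49.0), Clec4n (7.60), Mgl2 (5.32), Clec10a (0.881), Cd209a (0.468) and Clec9a (0.238). There, Clec12a stood clear of Clec4a2, Clec4a2 of Clec7a, and Clec4a1 of Clec4n.

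Summed over the 10 genes, RPKM came to 3873, 1758, 3449 and 3494 in DKOITD, 1332 and 1768 in ITD, and 1079, 680 and 1022 in WT. Cd209a made up 67.8%, 20.2%, 57.0% and 56.6% of that sum in DKOITD, 14.2% and 32.2% in ITD, and 0.130%, 0% and 0% in WT. In DKOITD 2, ITD 1 and all WT libraries the largest share was instead that of Clec12a.

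**Figure D2:**
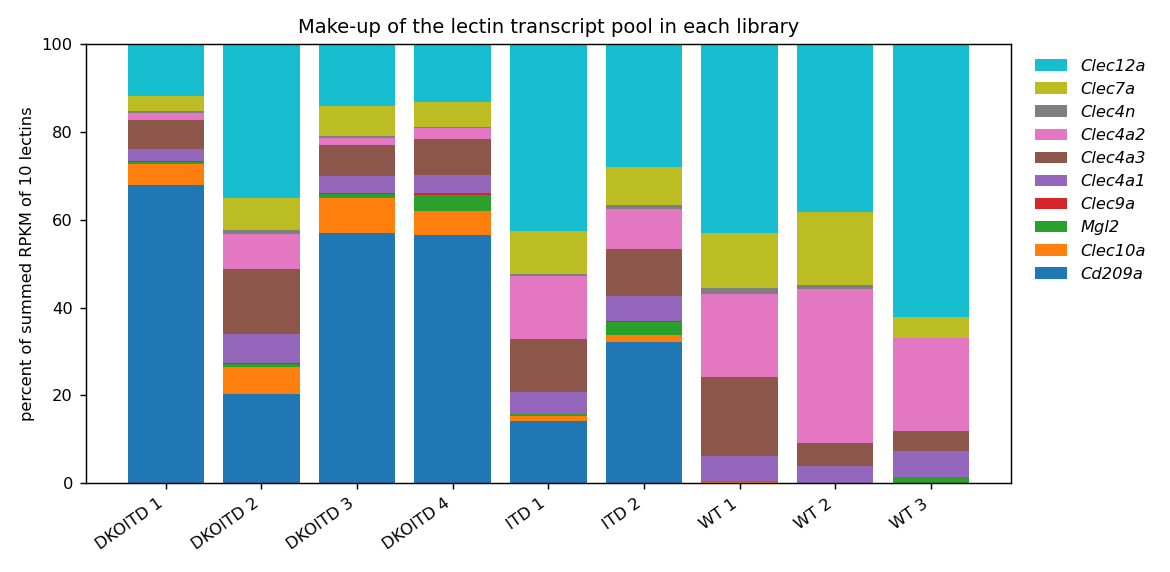
Share of each lectin in the summed RPKM of the 10, in percent, for each of the 9 libraries from DKOITD 1 to WT 3. Cd209a takes 67.8% of the bar in DKOITD 1 and 0.130% in WT 1, and Clec12a takes 11.8% and 43.0% of those bars.

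DKOITD against WT sets the combined alleles against floxed mice with neither Cre nor ITD. The differences below are of group means of log2(RPKM + 1), with the SE of a limma fit over all 9 libraries and 10868 tested genes. Cd209a differed by 10.01 ± 0.64, the largest positive difference of all tested genes, and Clec10a by 6.79 ± 0.47, the sixth. Mgl2 differed by 3.50 ± 0.997, Clec9a by 2.61 ± 0.50, Clec4a3 by 1.91 ± 0.47 and Clec4a1 by 1.41 ± 0.34. Clec4a2 differed by -1.42 ± 0.32. For Clec4n, Clec7a and Clec12a the values were 1.095 ± 0.63, 0.89 ± 0.37 and 0.24 ± 0.30.

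In that fit 6 of the 10 members passed the threshold as higher (limma, adjusted p under 0.05), where 7.43% of all tested genes did, and 1 as lower, where 5.27% did. Since the genes were picked with these differences known, nothing is read from the counts. Groups did not overlap for 5 members as higher, against 14.1% of all genes, and for 1 as lower, against 10.9%. The median difference was 1.66 over the 10 members and 0.17 over all tested genes. Cd209a, Clec10a and Clec9a stayed past the threshold whichever library was left out. Mgl2 did not stay without DKOITD 1, 3 or 4, or WT 1 or 2, Clec4a3 without DKOITD 1 or 3, or WT 2 or 3, Clec4a1 without DKOITD 3 or WT 2, and Clec4a2 without DKOITD 1 or 3. The count of 7 was thus 4 without DKOITD 1, 3 without DKOITD 3 and 4 without WT 2.

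Within the shared range of label numbers, DKOITD 4 lay above all WT libraries for Cd209a, Clec10a, Mgl2, Clec9a, Clec4a1, Clec4a3 and Clec7a. It lay above both ITD libraries for the same genes, below all WT and ITD libraries for Clec4a2, and below both ITD libraries for Clec12a. The share of all tested genes for which it did so was not worked out, and the members were chosen on these values, so nothing is read from this. With the number series as a term, Cd209a differed by 10.53 ± 1.013, Clec10a by 6.84 ± 0.75, Clec4a3 by 2.03 ± 0.75 and Clec4a2 by -1.23 ± 0.51 (SE), and 2 of the members, Cd209a and Clec10a, passed the threshold. That fit rests on DKOITD 4 alone for the comparison.

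Scaling changed the calls of Clec4a2, Clec4n, Clec7a and Clec12a. Scaled per recovered read, 8 members were past the threshold as higher and 0 as lower, where 23.2% and 2.27% of all genes were, and the median difference of all genes was 0.74 in place of 0.17. Clec4a2 stood at -0.66 ± 0.31, Clec7a at 1.65 ± 0.38 and Clec12a at 1.003 ± 0.33 (SE), so that Clec7a and Clec12a passed the threshold and Clec4a2 did not. With every library brought to the same total RPKM the all-gene median was 1.23, and 9 members were past the threshold as higher and 0 as lower, where 46.1% and 1.17% of all genes were. There Clec4n also passed, at 2.35 ± 0.65, and Clec4a2 stood at -0.03 ± 0.31 (SE). Relative to the all-gene median, Clec4a2 was between -1.79 and -1.26 and Cd209a between 9.71 and 13.40 in the deposited scale and 4 others. Clec12a was between -0.07 and 0.41 on that relative scale.

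**Figure D3:**
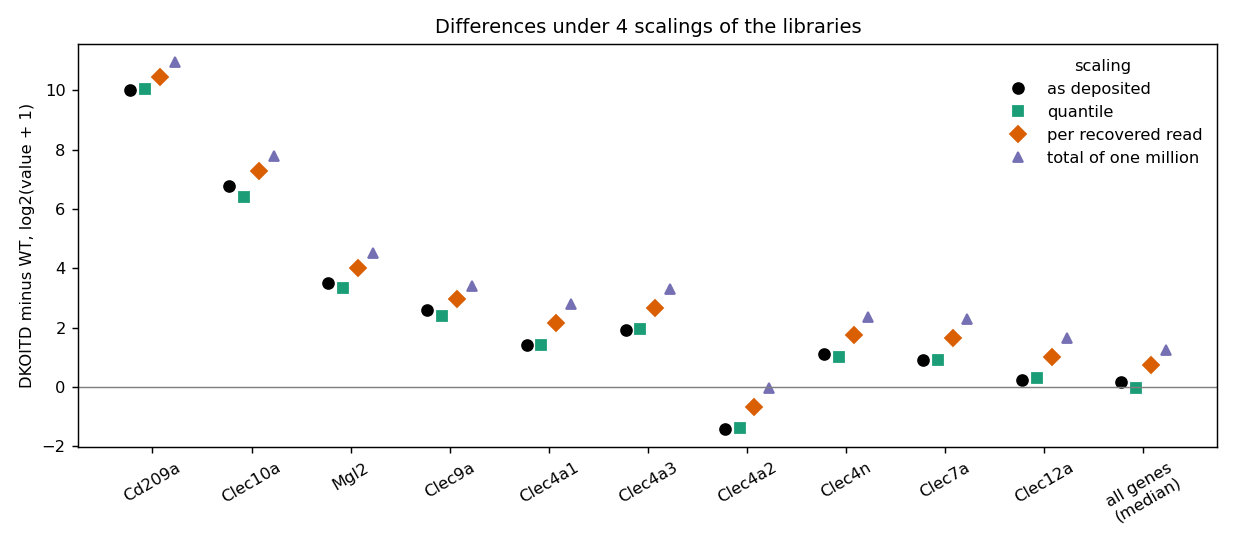
Difference between DKOITD and WT in log2(value + 1) for each lectin and for the median of all genes, under the deposited scaling and 3 others (symbols). The all-gene median is 0.17 as deposited and 1.23 with every library at the same total, and Clec4a2 lies below the median in each.

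DKOITD against ITD sets mice with Rag1Cre against mice without it, all with the floxed alleles and Flt3 ITD/+. Clec10a differed by 3.04 ± 0.53, Cd209a by 2.07 ± 0.73 and Clec9a by 1.75 ± 0.57 on the log2 scale (SE). Clec4a2 differed by -1.12 ± 0.36, and the other members lay between -0.08 (Clec12a) and 0.84 (Mgl2). Of the 10, only Clec10a passed the threshold (limma, adjusted p under 0.05) as higher, where 0.156% of all tested genes did (0.0552% as lower and 0.212% either way), and it did not without DKOITD 1, DKOITD 3, WT 3 or either ITD library. Groups did not overlap for 4 members as higher (17.3% of all genes) and 1 as lower (14%). Each genotype enters 2 of the 3 comparisons, so the differences share libraries and are not independent.

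ITD against WT sets the Flt3 ITD/+ allele against its absence, without Cre in either group. Cd209a differed by 7.94 ± 0.77 on the log2 scale (SE), and it was the only gene past the threshold among all 10868 tested (limma, adjusted p under 0.05; 0.0092% of genes), a call that ended without ITD 2. Clec10a differed by 3.75 ± 0.56, Mgl2 by 2.66 ± 1.19, Clec4a3 by 1.33 ± 0.56 and Clec9a by 0.85 ± 0.60 (SE). The other members lay between -0.31 (Clec4a2) and 0.82 (Clec4a1). Groups did not overlap for 3 members as higher, Cd209a, Clec10a and Clec4a1 (10.1% of all genes), and for Clec4a2 as lower (8.99%).

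**Figure D4:**
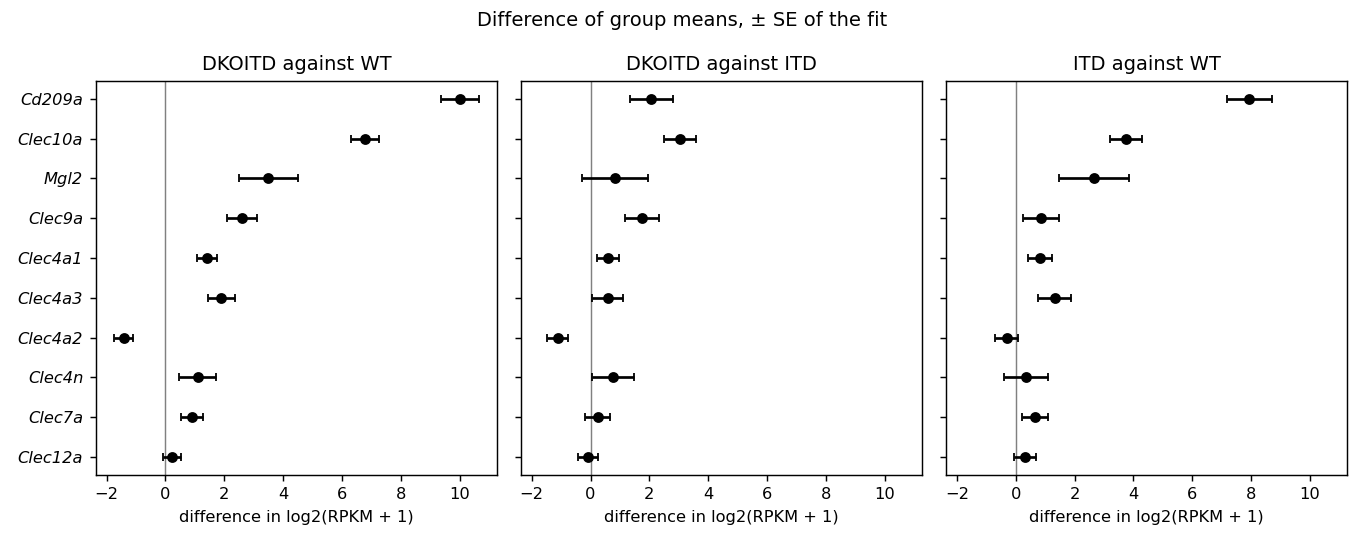
Difference of group means in log2(RPKM + 1) for each lectin in the 3 comparisons, with the SE of the fit as error bars. Cd209a stands at 10.01 for DKOITD against WT, 2.07 for DKOITD against ITD and 7.94 for ITD against WT, and Clec4a2 is left of 0 in each.

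The wider C-type lectin family held genes called in both directions. The list held 47 other family genes, of which 29 were tested, and 4 rose and 2 fell in DKOITD against WT (limma, adjusted p under 0.05), where 7.43% and 5.27% of all tested genes did. The median difference of the 29 was 0.88. Per recovered read 9 were called higher and 1 lower, where 23.2% and 2.27% of all tested genes were. Clec4b1, an activating relative of the Clec4a genes, rose to 332, 116, 323 and 205 RPKM across DKOITD, against 11.8, 0.902 and 1.101 RPKM in WT (5.93 ± 0.63 on the log2 scale, SE; adjusted p = 0.00052). The ITD libraries had 29.9 and 61.6 RPKM, so Clec4b1, like Clec10a, showed no overlap between the 3 groups.

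The mannose receptor Mrc1 averaged 27.9 ± 15.5 RPKM in DKOITD (SD, n = 4), 1.82 in the 2 ITD libraries and 0.452 ± 0.607 RPKM in WT (SD, n = 3), and rose by 4.15 ± 0.60 against WT (SE; adjusted p = 0.00284). Cd209c, a relative of Cd209a, averaged 9.59 ± 4.64 RPKM in DKOITD (SD, n = 4) and had no reads in WT, where it was listed at 0, so the size of its difference, 3.29, depends on the pseudocount (adjusted p = 0.0114). The activation antigen Cd69 rose by 2.79 ± 0.74 (SE; adjusted p = 0.031), a call that ended without DKOITD 1, DKOITD 3, WT 1 or WT 2 (range without any 1 library 2.37 to 3.63).

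The 2 that fell are lectins of neutrophils and monocytes. Clec4d, which works with Mincle in sensing mycobacterial glycolipid, was at 16.5 ± 9.98 RPKM over the DKOITD libraries (SD, n = 4), against 114 ± 58.3 in WT (SD, n = 3), a fall of 2.70 ± 0.50 on the log2 scale (SE; adjusted p = 0.00738). Clec5a, which pairs with the adaptor Tyrobp, was at 29.1 ± 16.6 RPKM over the DKOITD libraries (SD, n = 4), against 106 ± 48.0 in WT (SD, n = 3), at -1.92 ± 0.45 (SE; adjusted p = 0.0195). The call of Clec5a ended without DKOITD 1 or DKOITD 3 (-1.91 and -1.57), and with every library brought to the same total its difference was -0.55. Clec4e, which encodes Mincle, stood at -1.75 ± 0.64 and did not pass. With a term for the label number series 0 of the wider family and 0 of the signalling genes passed in DKOITD against WT.

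In map order, the first chromosome 6 stretch holds 9 Clec4 genes within 368.0 kb. Their log2 differences between DKOITD and WT, in map order, were above 0 for Clec4a1, Clec4a3 and Clec4b1, below 0 for Clec4a2 and Clec4b2, above 0 for Clec4n and below 0 for Clec4d and Clec4e. Clec4a4, between Clec4a3 and Clec4b1, stood at 0.23 ± 0.77, near the all-gene median of 0.17, and by mean RPKM it was lower (2.42 in DKOITD, 3.51 in WT). Clec4a4, Clec4b2, Clec4n and Clec4e did not pass the threshold.

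**Figure D5:**
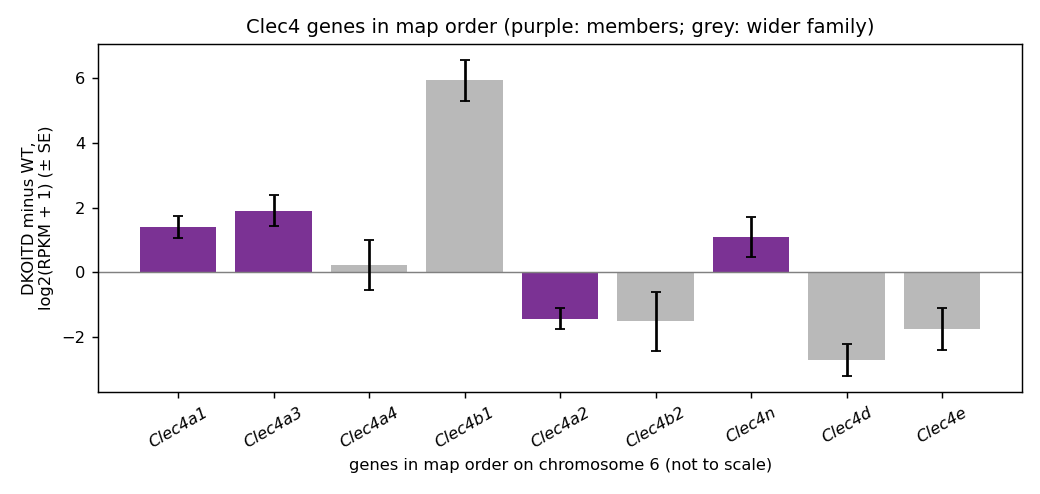
Difference between DKOITD and WT in log2(RPKM + 1), with SE, for the 9 Clec4 genes in map order on chromosome 6 (purple, the members; grey, other family genes). Clec4b1 stands at 5.93 and its neighbour in the map, Clec4a2, at -1.42.

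No gene of the wider family passed in DKOITD against ITD or in ITD against WT (limma, adjusted p under 0.05), where 13 and 2 of the 29 genes had an unadjusted p under 0.05, as did 15.7% and 7.93% of all tested genes. By limma voom on recovered reads 0 passed in both. Clec4d and Clec5a stood at -2.48 and -2.26 against ITD (adjusted p = 0.0665 and 0.0652), and Mrc1 at 3.15 (adjusted p = 0.0613).

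For the signalling genes downstream of these receptors, all 25 genes of the list were tested, and 0 rose and 3 fell in DKOITD against WT (limma, adjusted p under 0.05), where 7.43% and 5.27% of all tested genes did. Their median difference was -0.23, and an unadjusted p under 0.05 was reached by 2 as higher and 4 as lower, where 30.2% of all tested genes reached it. With every library brought to the same total 12 were called higher and 1 lower, where 46.1% and 1.17% of all genes were, so nothing particular to the list is read from that shift. Hcst was called lower there too. Hcst, the adaptor DAP10, fell by 2.30 ± 0.38 (SE; adjusted p = 0.0045), at 119 ± 50.1 RPKM over the DKOITD libraries (SD, n = 4), against 586 ± 234 in WT (SD, n = 3). Tyrobp, the adaptor DAP12, stood at -0.84 ± 0.25 (SE; adjusted p = 0.0467) and the Src family kinase Fgr at -1.15 ± 0.30 (SE; adjusted p = 0.029). With every library brought to the same total, Tyrobp and Fgr stood at 0.57 and 0.24, which relative to the all-gene median is -0.66 and -0.995, against -1.01 and -1.32 relative to it as deposited. The call of Tyrobp ended without any 1 of the libraries but WT 3, and that of Fgr without DKOITD 1, DKOITD 2, DKOITD 3 or WT 2 (-1.12, -1.09, -1.09 and -0.97).

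Syk and its upstream adaptor Fcer1g were expressed in every library. Syk measured 13.7 to 19.6 RPKM across DKOITD, 23.4 and 24.7 RPKM in ITD 1 and 2 and 22.4 to 62.0 RPKM in WT. Fcer1g measured 2297 to 3313 RPKM across DKOITD, 3765 and 4399 RPKM in ITD 1 and 2 and 2751 to 4499 RPKM in WT. Neither passed the threshold against WT. In the comparison with ITD and in that of ITD with WT, 0 of the 25 passed by limma or limma voom. An unadjusted p under 0.05 was reached by 4 and 1 of them, and by 15.7% and 7.93% of all tested genes.

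Genes whose pattern over the 9 libraries was nearest to a member were found by the root mean square difference of centred log2(RPKM + 1). Nearest to Cd209a were H2-Aa (1.59), Cd74 (1.70) and H2-Ab1 (1.70), the chains and invariant chain of MHC class II, followed by Clec10a (1.81). H2-Aa stood at 7069, 2042, 6770 and 7348 RPKM in the DKOITD libraries, 733 and 2166 RPKM in ITD 1 and 2, and 290, 5.54 and 9.85 RPKM in WT. As with Cd209a, DKOITD 2 was the lowest of its group and ITD 2 was above ITD 1.

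Nearest to Clec10a were Clec4b1 (0.55), Bcl2a1a (0.69), of a family of survival genes with near-identical copies, and Batf3 (0.81), a transcription factor of dendritic cells. Cd209a was the member nearest to Clec10a (1.81), but the 113th of all genes. Nearest to Clec9a were Ifi30 (0.28), a thiol reductase of antigen processing, Plekho1 (0.32) and Cbfa2t3 (0.34). The single nearest gene was Ndufaf7 for Clec4a1 (0.17), Slc39a10 for Clec4a3 (0.25) and Ccdc107 for Mgl2 (0.88). For Clec4n, Clec7a and Clec12a it was Chchd3 (0.33), Ankle2 (0.27) and Psmd13 (0.15). Nearest to Clec4a2 were Yaf2 (0.20), Lamtor4 (0.21) and Ugp2 (0.24), and the nearest member was Clec12a at 0.86, the 3480th of all genes. Clec4a1 and Clec4a3 were each other's nearest member (0.55), but Clec4a3 was the 858th gene for Clec4a1 and Clec4a1 the 94th for Clec4a3, so many other genes were nearer. Such distances share the libraries, their depth and the genotype groups.

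Marker genes of several cell types moved with the lectins, and in sorted pools fewer cells of a type and less RNA per cell cannot be told apart. The marker counts below stand beside 7.43% of all tested genes that rose and 5.27% that fell in DKOITD against WT. Of 10 markers of type 2 conventional dendritic cells, 6 rose and 0 fell in DKOITD against WT (limma, adjusted p under 0.05; median 2.92). The 6 were Irf4, Itgax, Cd1d1, Flt3, Dpp4 and Ccr7, and Flt3 is itself the locus altered in DKOITD and ITD. Sirpa (-0.40 ± 0.31) and Kit (-0.84 ± 0.61; SE) were lower and, like Klf4 and Zbtb46, did not pass. The summed level of the 10 was 160 to 369 RPKM across DKOITD, 75.1 and 110 RPKM in ITD 1 and 2 and 65.3 to 128 RPKM in WT, with Zbtb46 and Ccr7 at 0 throughout ITD and WT. Of 9 type 1 dendritic cell markers, 6 were tested and 3 rose, Batf3, Irf8 and Naaa, with summed levels of 381 to 847, 311 and 328, and 292 to 383 RPKM in the same order of groups, and with Xcr1, a defining marker, at no more than 0.614 RPKM in any library. Most of that sum in each library was Id2, which did not pass (0.33 ± 0.36, adjusted p = 0.552), so the sum does not follow the other markers. Of 7 plasmacytoid dendritic cell markers, 3 were tested and 2 rose, Bst2 and Tcf4, with summed levels of 54.9 to 265, 43.5 and 63.9, and 4.70 to 20.9 RPKM, and Siglech at 0 throughout ITD and WT. Most of the plasmacytoid sum in each library was Bst2 (240 of 265 RPKM in DKOITD 1, 40.3 of 43.5 in ITD 1).

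Neutrophil markers went the other way, and 10 of 13 fell in DKOITD against WT (limma, adjusted p under 0.05; 0 rose), where 5.27% of all tested genes fell. Their summed level was 59388, 202083, 36990 and 266182 RPKM across DKOITD, 685031 and 729095 RPKM in ITD 1 and 2, and 1013547, 1193688 and 883527 RPKM in WT. In the same order of libraries, Cd209a stood at 2628, 356, 1965 and 1977 RPKM across DKOITD. It was at 189 and 569 RPKM in ITD 1 and 2, and at 1.40, 0 and 0 RPKM in WT. The part of the neutrophil markers in the lectin differences was not tested.

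Of 9 monocyte markers 1 rose (Ccr2), with sums of 15292 to 31930 RPKM across DKOITD, 41842 and 43534 in ITD and 12781 to 33118 in WT. Most of that sum in each library was Lyz2 (13335 of 15597 RPKM in DKOITD 1, 38218 of 41842 in ITD 1). Lyz2 did not pass (-0.04 ± 0.43, SE), so the sum does not follow the other markers. Of 7 macrophage markers with values, 6 were tested and 1 rose (Fcgr1), with sums of 32.8 to 91.8, 61.9 and 64.8, and 36.4 to 166 RPKM. Of the 7 B cell markers 2 were tested and 1 rose (Cd79b), with sums of 42.7 to 70.8, 7.65 and 23.2, and 5.16 to 15.5 RPKM, and Pax5 and Vpreb3 were at 0 in all 9 libraries. Most of the B cell sum in each library was Cd79b. Of 6 NK markers 1 was tested and 0 rose or fell, and they summed to 15.8 to 124, 0 and 14.9, and 0 to 193 RPKM, with Prf1 at 0 in all libraries. The NK sums in DKOITD were nearly all Klrd1, and most of the sum in WT 2 was Gzma (146 of 193 RPKM). Of 7 markers of eosinophils, basophils and mast cells 1 was tested and 0 rose or fell, and they summed to at most 3.60 RPKM in any library. Of 6 erythroid markers with values 3 were tested and 1 fell (Beta-s), and they summed to 0 to 1.40, 0 and 2730, and 17.8 to 17156 RPKM, the last in WT 1. Their part in the lectin values was not tested either.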

How the data were processed

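Per the labels, RNA of 100 sorted Mac1+ cells per library was prepared with Smart-seq2. The authors deposited RPKM by gene symbol, 1 column to a library. The submitters' processing notes list STAR 2.4.2a, SAMtools 1.1, HTSeq 0.6.1p1 and the mm10 build without roles, and the annotation, lengths and denominator used were not found in them. Groups and replicate numbers came from the titles. The members and lists were chosen with earlier results of these data known.

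The 10868 of 23420 genes that reached RPKM 1 in 2 or more libraries were fitted as log2(RPKM + 1) with limma 3.58.1 in R 4.3.3 (lmFit, eBayes with trend, group as the only factor, all 9 libraries), two-sided with Benjamini-Hochberg adjustment at 0.05. Differences on this scale understate changes of low genes. The fit was also run on simulated normal values with planted differences. These lack the zeros and the label number series of the data, so that run does not vouch for the calls. No pair of libraries was identical.

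Whole reads were recovered for 15564 of 15566 genes above 0, with a tolerance of 0.0001 reads, by finding the shortest gene length from 20 to 30000 bp that gives whole reads in all libraries, anchored on 505 GENCODE vM21 exon lengths. The fitted length equalled the GENCODE length for 4.3% of the genes that had both. The recovered reads give depth and counting precision, and the alternatives per recovered read and by limma voom also rest on them. Without molecular identifiers PCR copies count as separate reads. All 10 members are named. Other named genes are list members past the threshold, marker genes beside their list, and genes singled out after their values were seen (Clec4a4, Clec4b2, Clec4e, Id2, Syk, Fcer1g). By centred log2 pattern, the 3 nearest genes are named for Cd209a, Clec10a, Clec9a and Clec4a2, and the single nearest for each other member. Alternatives covered the pseudocount, the filter, scaling, a replicate block, the label number series, library weights and each library left out.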

Additional observations from a re-analysis of the deposited data

Results flagged for a closer look

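Within DKOITD, the extreme library's gap to its nearest neighbour, divided by the range of the group, was compared with the critical value 0.829 for 4 samples, for 10 genes on 2 scales. Chance flags about 1 in 20 groups, and 3 passed here. Cd209a in DKOITD 2, at 8.48 on the log2(RPKM + 1) scale, was below the other DKOITD libraries (10.94 to 11.36; ratio 0.855). Mgl2 in DKOITD 4, at 133 RPKM, was above the others (14.3 to 31.2 RPKM; ratio 0.858). Clec12a in DKOITD 2, at 616 RPKM, was above the others (459 to 484 RPKM; ratio 0.84). DKOITD 2 also had the fewest recovered reads, 2825728.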

How the results depend on the processing

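In DKOITD against WT, Cd209a and Clec10a stayed past the threshold with the same sign in all 18 alternatives. The 7 members called ranged from 3 to 7 with 1 library left out, all genes called (1380) from 537 to 1955, the 6 wider family genes from 4 to 10, and the 3 signalling genes from 1 to 5. In DKOITD against ITD the ranges were 0 to 1 members (1 called), 0 to 157 genes (23 called), 0 to 1 family genes and 0 signalling genes. In ITD against WT they were 0 to 3 members (1 called), 0 to 47 genes (1 called) and 0 to 1 family genes. With 1 ITD library left out, the lone one is assumed to vary like the other groups. With 1 library left out, some members without a call changed sign: Clec12a ranged from -0.12 to 0.53 in DKOITD against WT, from -0.18 to 0.0147 against ITD and from -0.0345 to 0.61 in ITD against WT, Mgl2 from -0.63 to 2.30 and Clec4n from -0.0325 to 1.53 in DKOITD against ITD, and Clec4n from -0.44 to 1.13 in ITD against WT.

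With every library brought to the same total, 5135 genes passed in DKOITD against WT (5008 higher, 127 lower, where 807 and 573 did as deposited), with 17 family and 13 signalling genes, and 1575 in DKOITD against ITD, with 4 members, 6 family and 3 signalling genes. There Clec12a reached 0.99 against ITD, Clec4a2 0.0273 in ITD against WT, and Fgr and Tyrobp 0.24 and 0.57 in DKOITD against WT, where the members called were 9 higher and 0 lower. Scaled per recovered read, an alternative chosen after seeing the data, 2772 (2525 higher, 247 lower) and 274 genes passed in these comparisons, with 10 and 1 family genes and Clec12a at 0.47 against ITD. By limma voom on recovered reads, also added after seeing the data, 2898 genes and 15 family genes passed in DKOITD against WT and 0 genes and 0 members in both other comparisons, with Clec12a at 0.47 against ITD. Quantile normalization gave 42 genes in DKOITD against ITD (and 678 higher and 767 lower in DKOITD against WT). The all-gene median difference in DKOITD against WT was 1.23, 0.74, 1.05 and -0.03 under these alternatives, where it was 0.17 as deposited.

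With a term for the label number series, 4 genes, 2 members, 0 family and 0 signalling genes passed in DKOITD against WT and 0 genes and 0 members against ITD, where Clec4n stood at -0.20. Without a filter on low values 733 genes and 4 members passed in DKOITD against WT, 0 members against ITD, and 3 genes and 0 members in ITD against WT, with more genes tested. A pseudocount of 0.1 gave 0 members against ITD and 2 genes in ITD against WT. Library weights gave 526 genes, 4 family and 1 signalling gene in DKOITD against ITD and 1 signalling gene against WT. The cause was not tested.

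The replicate numbers gave no sign of pairing the libraries: deviations of same-numbered libraries from their group means correlated between -0.04 and 0.07 across genes. Deviations within a group sum to 0 and the groups are small, so a weak shared effect could be missed. With the number as a replicate block, 884 genes and 4 members passed in DKOITD against WT, 57 genes and 0 members against ITD, and 0 genes and 0 members in ITD against WT, with Mgl2 at -0.52 against ITD and Clec4n at -0.0467 in ITD against WT.

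Depth limits Cd209a, Clec10a and Clec9a in WT, where few or no reads were recovered.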
